A study of Mus musculus with 4 samples.

Results

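The genes described here are 10 members of the glycolytic pathway, chosen with earlier results of these data known. They were matched by symbol to Ensembl identifiers among the 41214 genes counted in each library. They are the 3 hexokinase genes Hk1, Hk2 and Hk3, the isomerase gene Gpi1, the phosphofructokinase genes Pfkp and Pfkl, and Aldoa, Pgam1, Pkm and Ldha, which encode later enzymes. RNA sequencing counts came from megakaryocytes, the marrow cells that release platelets, of C57Bl/6 mice aged 8 weeks. The cells were taken from tibiae, femora and humeri and sorted as lineage-negative cells carrying cKit, CD41 and CD61. The 4 groups held 1 library each: Gfi1b wild-type with PF4-Cre, Gfi1b knockout with PF4-Cre, Gfi1b wild-type with ROSA-Cre and Gfi1b knockout with ROSA-Cre. All 4 groups, the wild-type groups included, are labelled with a Cre. The promoter of Pf4, the platelet factor gene, is active in megakaryocytes. For ROSA-Cre the labels give the name alone, with no inducing agent, and they do not state how many mice gave a library.

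Glycolysis splits glucose into pyruvate and yields ATP without oxygen, and lactate dehydrogenase can then turn pyruvate into lactate. Hexokinases trap glucose in the cell by phosphorylating it, phosphofructokinase commits the sugar to breakdown, and pyruvate kinase makes ATP in the last step. Megakaryocytes and platelets use this pathway together with mitochondrial respiration, and isoforms of its enzymes differ between tissues: Hk1 is widely expressed, Hk2 is the inducible form of muscle and fat, and Hk3 is found mostly in myeloid blood cells. GFI1B represses transcription through zinc fingers and is required to form platelets and red cells.

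The total over all genes was 61652843 counts in wild-type PF4-Cre, 59595680 in its knockout, 24869421 in wild-type ROSA-Cre and 21835165 in its knockout, so depth differed with the Cre model. Gfi1b itself had 10137, 84744, 5864 and 55122 counts in that order, 8.26-fold higher in the knockout of PF4-Cre and 10.3-fold higher in that of ROSA-Cre. Which exons were deleted is not stated in the labels, and "knockout" below always means a library labelled so, with each direction resting on that label. All 12 megakaryocyte markers checked, among them the integrin gene Itga2b (CD41) as the most abundant, were detected in every library, with summed levels of 6976, 7601, 9844 and 6514 CPM (counts scaled to a common library size, here after TMM normalisation).

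All 10 glycolysis genes were well detected, with the lowest count being 443 for Hk3 in the knockout of ROSA-Cre, and all 10 were tested among 15063 genes. Their summed level was 2765 CPM in wild-type PF4-Cre, 2732 in its knockout, 3487 in wild-type ROSA-Cre and 3025 in its knockout. The sum was thus nearly level between genotypes in PF4-Cre (ratio 0.988) and lower in the knockout of ROSA-Cre (0.868), which hides changes of opposite sign among its parts. Levels of different genes were compared per kilobase of annotated exon, as the mean over the 4 libraries. On that scale Ldha stood highest at 231.5 CPM per kb, followed by Pkm at 148.9, Aldoa at 121.0 and Gpi1 at 55.0. Pgam1 (35.8), Pfkl (32.8) and Hk1 (31.5) came next, and Hk3 (9.88), Hk2 (9.81) and Pfkp (9.76) were lowest. Neighbours in this order overlapped in their ranges over the libraries, with a pair of exceptions. The lowest Aldoa library (97.1 CPM per kb) lay above the highest Gpi1 library (66.2), and the lowest Hk1 library (22.5) lay above the highest Hk3 library (15.8). All 10 lay above the middle of the tested genes, between percentile 62.9 for Pfkp and 98.9 for Ldha.

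**Figure D1:**
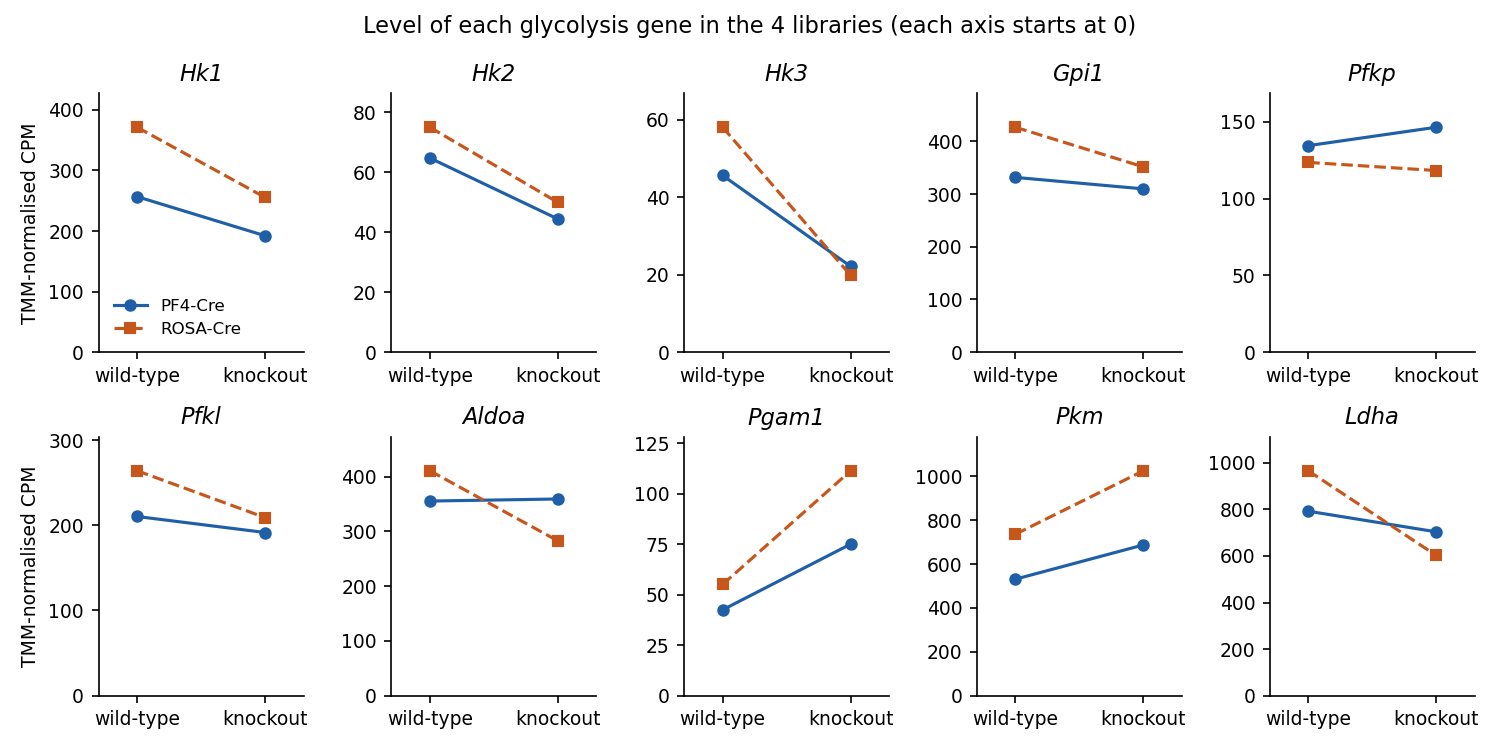
Level of each of the 10 genes in the 4 libraries as TMM-normalised CPM (y axes start at 0 and differ between panels), with wild-type and knockout on the x axis, circles and a solid line for PF4-Cre and squares and a dashed line for ROSA-Cre. Each point is 1 library, so no error can be drawn. The lines of the 3 hexokinase genes go down and those of Pgam1 and Pkm go up in both models. That of Aldoa is level in PF4-Cre and goes down in ROSA-Cre. That of Pfkp goes up slightly in PF4-Cre and is nearly level in ROSA-Cre.

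The first comparison asked which of these genes differed between genotypes over both Cre models. Hk1, Hk2 and Hk3 were lower and Pgam1 was higher in the libraries labelled knockout, and the other 6 genes did not pass the test (quasi-likelihood test of edgeR, with Cre as the second term and Benjamini-Hochberg adjustment over all tested genes, n = 2 libraries per genotype). The 3 falls stand beside a background of 9.58% of tested genes called lower, the 1 rise beside 12.6% called higher, and the 4 calls together beside 22.2% called in either direction. Each p-value takes its error from the disagreement of the 2 models on that gene, moderated across genes, and the labels do not say that the libraries came from separate animals. The median log2 change of the 10 genes was -0.25, against -0.02 over all tested genes. In bulk samples such as these, fewer cells of a type and less RNA per cell cannot be told apart.

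**Figure D2:**
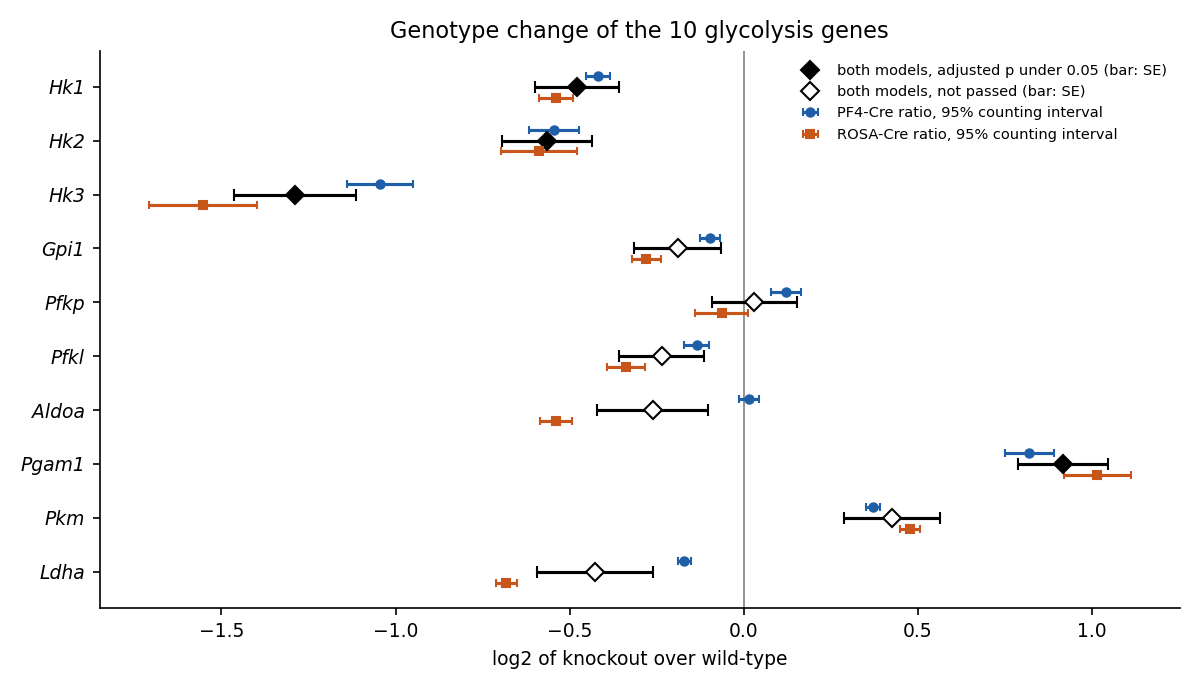
Change of each gene as log2 of knockout over wild-type (x axis, 0 is no change), with diamonds for the fit over both Cre models (bar: standard error; filled where the adjusted p was under 0.05), circles for PF4-Cre and squares for ROSA-Cre (bars: 95% counting interval of the ratio of 1 library to another). The 3 hexokinase diamonds are filled to the left of 0, that of Pgam1 is filled to the right, and the circles and squares lie farthest apart for Aldoa, Ldha and Hk3.

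Sequence from just before the start sites is shown for 4 genes that carry the main contrasts: Hk2 and Hk3 (lower), Pgam1 (higher) and Ldha, the most abundant of the 10 and not past the test. The letters are the 250 bases upstream of the RefSeq start on GRCm38.p6, read along the gene's strand. Capitals mark ACGTG or GCGTG on either strand, the core letters bound by hypoxia-inducible factors, classical activators of glycolysis genes.
Hk2: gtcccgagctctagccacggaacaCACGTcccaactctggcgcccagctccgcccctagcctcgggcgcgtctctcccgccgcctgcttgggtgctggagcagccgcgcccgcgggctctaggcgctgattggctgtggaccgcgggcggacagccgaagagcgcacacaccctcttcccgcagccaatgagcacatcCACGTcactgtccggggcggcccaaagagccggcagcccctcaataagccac
Hk3: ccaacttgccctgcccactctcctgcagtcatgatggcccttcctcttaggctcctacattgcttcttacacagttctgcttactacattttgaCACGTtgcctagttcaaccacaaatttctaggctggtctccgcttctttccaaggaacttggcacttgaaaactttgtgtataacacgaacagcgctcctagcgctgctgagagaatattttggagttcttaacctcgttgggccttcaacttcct
Pgam1: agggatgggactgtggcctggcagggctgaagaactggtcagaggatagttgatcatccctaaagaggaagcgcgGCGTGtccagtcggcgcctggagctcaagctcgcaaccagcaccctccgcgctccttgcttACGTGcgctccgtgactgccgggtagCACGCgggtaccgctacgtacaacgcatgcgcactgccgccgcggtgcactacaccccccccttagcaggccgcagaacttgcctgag
Ldha: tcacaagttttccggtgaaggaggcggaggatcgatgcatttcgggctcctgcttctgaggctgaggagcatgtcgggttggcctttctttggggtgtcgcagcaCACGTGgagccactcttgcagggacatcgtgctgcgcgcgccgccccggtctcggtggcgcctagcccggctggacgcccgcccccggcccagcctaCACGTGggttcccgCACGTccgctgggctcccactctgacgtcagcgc
The windows lie at chr6:82774455-82774704 (minus strand) for Hk2, chr13:55021386-55021635 (minus) for Hk3, chr19:41911621-41911870 (plus) for Pgam1 and chr7:46845554-46845803 (plus) for Ldha. The last of these is intronic to a longer annotated Ldha transcript, and Ldha has a second RefSeq start that is not shown. The core matched 2 times in the Hk2 window, 1 time in Hk3, 3 times in Pgam1 and 5 times in Ldha, where the 2 copies of the palindrome CACGTG each count on both strands. That palindrome is the E-box letters that MYC and its partners bind. Over all 15 RefSeq windows of the 10 genes, 11 held the hypoxia core, against 38.6% of all 32851 mouse windows of the same length. These 11 belong to 9 genes, and a pair of overlapping Aldoa windows hold the same match. CACGTG was in 1 of the 15, against 6.02%. The share of G and C in the windows of the 10 genes ran from 47.2% for Hk3 to 69.6% for Hk2, and the median over all windows was 52.4%. The background shares of the motifs were not matched for G and C, and enrichment was not tested. AATCAC, the core letters of GFI1-family sites with a flank, was in none of the 15 windows on either strand, against 9.14% of all windows. A match is a match of letters only, and its absence says nothing of binding elsewhere.

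The hexokinases open the pathway. Hk1 (ENSMUSG00000037012, GRCm38 chromosome 10 from 62268855 to 62379908, minus strand), the general mitochondria-bound form, had 257 CPM in wild-type PF4-Cre and 192 in its knockout, and 371 and 255.5 in the ROSA-Cre pair. The knockout was lower within each model, but the PF4-Cre wild-type and ROSA-Cre knockout libraries had almost the same level, so both knockouts lay only just below both wild types. Hk1 fell by 0.48 log2 units (SE 0.12, adjusted p = 0.0310). Its log2 change was -0.73 without the wild-type PF4-Cre library and -0.30 without the PF4-Cre knockout. The change was -0.17 without the wild-type ROSA-Cre library and -0.71 without the ROSA-Cre knockout. The call was lost in each of these fits. Without a filter on low counts Hk1 missed the threshold (adjusted p = 0.0666 by the edgeR test). Within the models the level was 1.34-fold lower in PF4-Cre (counting interval of 95%, by Clopper-Pearson, 1.304 to 1.37) and 1.45-fold lower in ROSA-Cre (1.41 to 1.502). Such intervals cover counting error between 2 libraries only.

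Hk2 (ENSMUSG00000000628, chromosome 6 from 82725025 to 82774454, minus strand), the insulin- and hypoxia-inducible form, had 64.75 CPM in wild-type PF4-Cre, 44.4 in its knockout, 75.0 in wild-type ROSA-Cre and 49.9 in its knockout. Both knockout libraries lay well below both wild-type libraries, and the 2 models gave nearly the same ratio. The fold was 1.46 lower in PF4-Cre (interval 1.39 to 1.53) and 1.502 lower in ROSA-Cre (1.39 to 1.62). Hk2 fell by 0.56 over both models (log2, SE 0.13, adjusted p = 0.0231) and missed the threshold without a filter on low counts (adjusted p = 0.0527).

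Hk3 (ENSMUSG00000025877, chromosome 13 from 55005985 to 55021385, minus strand), the myeloid form, showed the largest change of the 10. Its levels were 45.6 CPM in wild-type PF4-Cre, 22.1 in its knockout, 58.0 in wild-type ROSA-Cre and 19.8 in its knockout. Both knockouts lay far below both wild types, and the gap between genotypes was wider than that between the models. The level was 2.06-fold lower in PF4-Cre (interval 1.93 to 2.20) and 2.93-fold lower in ROSA-Cre (2.64 to 3.27). The log2 change over both was -1.29 (SE 0.17, adjusted p = 0.00432 by the edgeR test). The exons of Hk3 share 34 bases with Unc5a on the opposite strand. Unc5a was higher in both knockouts (ratios 1.955 and 2.55), the strand setting of the counting is not given, and its part in the Hk3 count was not tested. With any 1 library left out, which also forces the Cre term out of the model, Hk3 passed only without wild-type PF4-Cre (adjusted p = 0.0381), and Hk1, Hk2 and Pgam1 passed in none of the 4 fits.

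Several markers of myeloid cells moved in the same direction as Hk3. Of 17 neutrophil and granulocyte precursor markers 6 fell, among them the granule protein genes Mpo, Elane, Prtn3 and Ctsg, and 1 rose (Gfi1, the paralogue of Gfi1b). Their summed level was 1864 CPM in wild-type PF4-Cre and 1180 in its knockout, and 2018 and 626 in the ROSA-Cre pair, and none of them was at 0 in any library. The median log2 ratio of the 17 was 0.08 in PF4-Cre, so most of them did not fall there, and -1.80 in ROSA-Cre. Mpo, the most abundant of them, fell by 1.91 (log2, SE 0.13, adjusted p = 0.000300). Of 10 monocyte and macrophage markers 4 fell and 0 rose, with sums of 146 and 132 CPM in PF4-Cre and 164 and 64.8 in ROSA-Cre. The calls in both marker lists stand beside 9.58% of tested genes called lower and 12.6% called higher. The part of such cells in the Hk3 result was not tested.

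The mix of hexokinase transcripts shifted with genotype. Together the 3 genes went from 367 to 259 CPM in PF4-Cre (ratio 0.705) and from 504 to 325 in ROSA-Cre (0.645). Per kilobase of exon, Hk1 made up 56.4% of hexokinase transcripts in wild-type PF4-Cre and 62.6% in its knockout, and 60.6% and 68.6% in the ROSA-Cre pair. Hk3 went the other way, from 23.2% to 16.7% and from 21.9% to 12.3%. Hk2 kept a share of 17.5% to 20.7% in the 4 libraries. The knockout libraries thus held relatively more Hk1 and less Hk3 in both models, with 1 library a group and therefore no test. Counts not divided by length gave Hk3 lower shares, 12.4% and 8.55% in PF4-Cre and 11.5% and 6.08% in ROSA-Cre, with the same order. Hkdc1, a further hexokinase gene, had at most 2 counts in any library and was not tested.

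**Figure D3:**
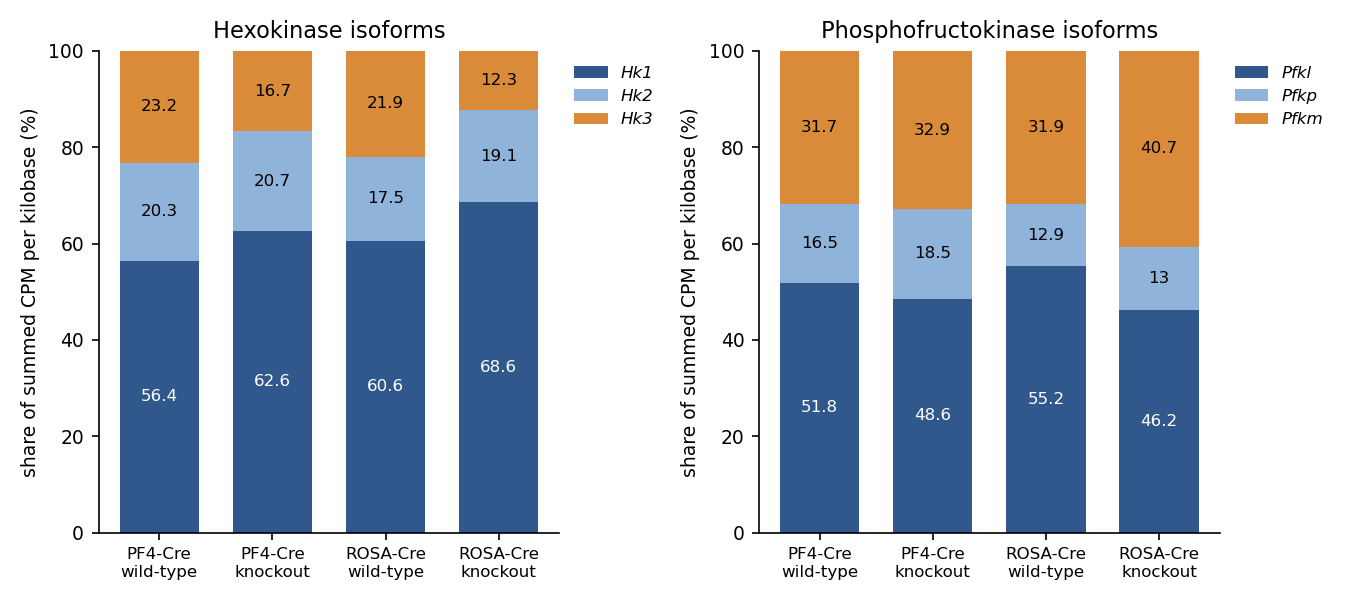
Share of each isoform in the summed CPM per kilobase of its enzymatic step (y axis, %), for hexokinase (left) and phosphofructokinase (right), with 1 stacked bar per library. The Hk3 segment shrinks between wild-type and knockout bars, 23.2% to 16.7% for PF4-Cre and 21.9% to 12.3% for ROSA-Cre, and the Pfkm segment is largest, at 40.7%, in the ROSA-Cre knockout.

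Gpi1 (ENSMUSG00000036427, chromosome 7 from 34201330 to 34230336, minus strand), which turns glucose 6-phosphate into fructose 6-phosphate, did not pass the test. It had 332 and 309.9 CPM in the PF4-Cre pair, wild-type first, and 427 and 352 in the ROSA-Cre pair. The ROSA-Cre knockout lay above wild-type PF4-Cre, so the genotypes overlapped. The log2 change was -0.19 (SE 0.12, adjusted p = 0.317).

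The phosphofructokinase genes changed little. Pfkl (ENSMUSG00000020277, chromosome 10 from 77986947 to 78010083, minus strand), the liver-type subunit and the most abundant of the step, had 210.3 and 191.5 CPM in PF4-Cre and 264 and 209 in ROSA-Cre. Both knockout libraries were below both wild-type libraries, though by a margin of little more than 1 CPM at its narrowest. Its log2 change was -0.24 (SE 0.12, adjusted p = 0.208). Pfkp (ENSMUSG00000021196, chromosome 13 from 6579768 to 6648777, minus strand), the platelet-type subunit, had 134.5 and 146.5 CPM in PF4-Cre and 124 and 118 in ROSA-Cre. It was 1.09-fold higher in the knockout of PF4-Cre (interval 1.06 to 1.12) while the ROSA-Cre interval of the ratio, 0.909 to 1.01, included 1. Over both models its log2 change was 0.03 (SE 0.12, adjusted p = 0.880), and its sign turned with a GC and length correction (-0.16). The exons of Pfkp share 748 bases with Pitrm1 on the opposite strand, whose count was lower in both knockouts (ratios 0.709 and 0.612), and the strand setting of the counting is not given in the sources used here.

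Pfkm, the muscle-type subunit outside the 10 genes, had a log2 change of 0.14 (SE 0.13, adjusted p = 0.484). Per kilobase, Pfkl made up 51.8% of phosphofructokinase transcripts in wild-type PF4-Cre, 48.6% in its knockout, 55.25% in wild-type ROSA-Cre and 46.2% in its knockout. Pfkp held 16.5%, 18.5%, 12.9% and 13.0% in the same order, so the platelet-type gene was the smallest part of the step in all 4 libraries on this scale. By counts alone Pfkp held 26.65% to 36.4% and stood second. The length used is the union of all annotated exons, 13401 bases for Pfkp, the longest of the 10 genes. The place of Pfkp in the step thus rests on that length, and which order holds for transcripts was not tested.

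Aldoa (ENSMUSG00000030695, chromosome 7 from 126795234 to 126800751, minus strand) encodes the aldolase that splits fructose 1,6-bisphosphate. Its level was 355.5 CPM in wild-type PF4-Cre, 359 in its knockout, 411 in wild-type ROSA-Cre and 283 in its knockout. The PF4-Cre pair was level (ratio 1.01, interval 0.992 to 1.03) while the ROSA-Cre knockout was the lowest library (ratio 0.688, interval 0.667 to 0.710). Over both models the log2 change was -0.26 (SE 0.16, adjusted p = 0.278). Aldoc, the brain-type aldolase, had 231 and 361 counts in the PF4-Cre pair and 84 and 172 in the ROSA-Cre pair. Both knockouts lay above both wild types in normalised level (ratios 1.54 and 2.25), and it did not pass the test (log2 change 0.85, SE 0.28, adjusted p = 0.0676). Aldoa made up at least 97.6% of aldolase transcripts per kilobase in every library.

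Pgam1 (ENSMUSG00000011752, chromosome 19 from 41911923 to 41918660, plus strand), the phosphoglycerate mutase that moves the phosphate of 3-phosphoglycerate, was the only 1 of the 10 to pass as higher in the knockout. Its levels were 42.5 CPM in wild-type PF4-Cre, 75.0 in its knockout, 55.1 in wild-type ROSA-Cre and 111 in its knockout. Both knockouts lay above both wild types. The ratio was 1.77 in PF4-Cre (interval 1.68 to 1.86) and 2.02 (1.89 to 2.16) for the ROSA-Cre libraries. The log2 change over both was 0.92 (SE 0.13, adjusted p = 0.00497). The processed pseudogene Pgam1-ps2 took 252, 510, 96 and 201 counts, or 7.09% to 11.2% of the Pgam1 count, with ratios of 2.0 and 2.30. Reads shared between near-identical copies can be split or dropped in counting, so the Pgam1 level is uncertain, and how many such reads were dropped was not tested. The muscle gene Pgam2 had at most 2 counts and was not tested.

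Pkm (ENSMUSG00000032294, chromosome 9 from 59656368 to 59679375, plus strand) encodes the pyruvate kinase of most tissues, in 2 splice forms that gene counts do not separate. It had 531 and 687 CPM in the PF4-Cre pair and 736 and 1025 in the ROSA-Cre pair. The knockout was higher within each model (ratios 1.29 and 1.39), but wild-type ROSA-Cre lay above the PF4-Cre knockout, so the genotypes overlapped. The log2 change was 0.42 (SE 0.14, adjusted p = 0.0654). It passed under 3 of 8 alternatives fitted to all 4 libraries: DESeq2's Wald test (adjusted p = 0.0205), a mean of at least 5 CPM (0.0327) and a GC and length correction (0.0327). Pklr, the liver and red cell pyruvate kinase, had 77, 18, 48 and 3 counts and fell (log2 change -2.56, SE 0.49, adjusted p = 0.0131). At those counts the ratio was 0.231 in PF4-Cre (interval 0.130 to 0.390) and 0.0687 (0.0137 to 0.213) for the ROSA-Cre libraries. Pkm still made up at least 99.6% of pyruvate kinase transcripts per kilobase.

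Ldha (ENSMUSG00000063229, chromosome 7 from 46841475 to 46855627, plus strand), the lactate dehydrogenase subunit that favours lactate, had 792 and 704 CPM in the PF4-Cre pair and 966 and 602 in the ROSA-Cre pair. Both knockouts were below both wild types, with the larger gap in ROSA-Cre (ratio 0.623) than in PF4-Cre (0.888). It did not pass the test (log2 change -0.43, SE 0.17, adjusted p = 0.111). Ldhb, the heart subunit, had 366, 266, 166 and 144 counts and did not pass either (log2 change -0.29, SE 0.26, adjusted p = 0.456).

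Counting libraries rather than p-values, 5 of the 10 genes (Hk1, Hk2, Hk3, Pfkl and Ldha) had both knockouts below both wild types, beside 23.7% of tested genes, and 1 (Pgam1) had both above, beside 23.4%. The 6 genes whose groups did not overlap stand beside 47.1% of all tested genes.

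The second comparison took each Cre model on its own, with 1 library per group and no test. In PF4-Cre 1 of the 10 genes was at least 2-fold lower in the knockout (Hk3, background 2.76% of tested genes) and 0 were at least 2-fold higher (background 9.77%). In ROSA-Cre 1 was at least 2-fold lower (Hk3, background 7.83%) and 1 at least 2-fold higher (Pgam1, background 13.7%). At a limit of 1.5-fold, 1 gene was higher (Pgam1, background 16.7%) and 1 lower (Hk3, 8.21%) in PF4-Cre, and 1 was higher (Pgam1, 22.3%) and 3 lower (Hk2, Hk3 and Ldha, 18.3%) in ROSA-Cre. None of the 10 reached 4-fold in either model, beside 3.68% of tested genes higher and 0.252% lower in PF4-Cre and 5.18% and 1.95% in ROSA-Cre. The ratio was below 1 for 6 of the 10 genes and above 1 for 4 in PF4-Cre (54.4% and 45.5% of tested genes), and below 1 for 8 and above 1 for 2 in ROSA-Cre (50.1% and 49.9%). The median log2 ratio of the 10 genes was -0.12 in PF4-Cre and -0.44 in ROSA-Cre, against -0.05 and 0.00 over all tested genes.

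The models differed most for Aldoa, Ldha and Hk3, whose log2 ratios were lower in ROSA-Cre by 0.56, 0.51 and 0.51. Differences of that size were common: 73.5%, 70.9% and 70.8% of tested genes had a smaller one. Pfkp and Aldoa fell on opposite sides of 1 in the 2 models, as 22.9% of tested genes did. For each of them the counting interval of 1 model included 1: ROSA-Cre for Pfkp and PF4-Cre for Aldoa. Whether the genotype effect differs between models was not tested, since an interaction term would leave 0 residual degrees of freedom. Hk2 had the most similar ratios of the 10 genes.

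The third comparison set the Cre models against each other over both genotypes. Hk1, Pgam1 and Pkm were higher in ROSA-Cre and 0 of the 10 genes were lower, beside 8.31% of tested genes called higher and 10.4% called lower. Hk1 was higher by 0.47 log2 units (SE 0.12, adjusted p = 0.0365), Pgam1 by 0.47 (SE 0.13, adjusted p = 0.0442) and Pkm by 0.52 (SE 0.14, adjusted p = 0.0398). All 3 calls were lost with any 1 library left out. A GC and length correction ended them too: Hk1 went to 0.02 (adjusted p = 0.938), Pgam1 to 0.39 (0.137) and Pkm to 0.07 (0.801). That correction also moved the share of higher calls among all genes called from 44.4% to 64.1%. Depth differed 2.82-fold between the deepest and shallowest library and went with the model, so depth and model cannot be told apart.

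The rest of the pathway is given from lists that hold its other enzymes, the transporters at its ends and its regulators. The counts of these lists stand beside the same 12.6% of tested genes called higher in the knockout and 9.58% called lower. Of 18 further glycolysis genes 11 were tested, and 4 fell and 1 rose. Pgk1, the first ATP-making kinase, fell by 0.64 (log2, SE 0.14, adjusted p = 0.0195), and Pklr fell as given above. The neuronal enolase Eno2 rose at a low level, with 13, 44, 7 and 30 counts (log2 change 1.92, SE 0.48, adjusted p = 0.0303). The other 2 that fell, named after their values were seen, were Tpi1 and Gapdh, with log2 changes of -0.41 (adjusted p = 0.0486) and -0.50 (adjusted p = 0.0327). The ubiquitous enolase Eno1 did not pass (log2 change -0.22, SE 0.13, adjusted p = 0.272).

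Of 8 tested glucose and lactate transporter genes 1 rose and 2 fell. Slc2a1 (GLUT1), the general glucose carrier, had 1599, 2541, 896 and 2101 counts and rose by 1.004 (log2, SE 0.19, adjusted p = 0.0131). Slc2a3 (GLUT3), the glucose carrier of platelets and neurons, had 11552, 8802, 3773 and 1895 counts and fell by 0.63 (SE 0.14, adjusted p = 0.0233). Slc16a1 (MCT1), which carries lactate and pyruvate across the membrane, fell by 1.20 (SE 0.24, adjusted p = 0.0145). The 5 tested enzymes that make and break fructose 2,6-bisphosphate, the activator of phosphofructokinase, gave 0 calls in either direction, with Pfkfb4 at 0.71 (adjusted p = 0.0665) and Pfkfb3 at -0.47 (adjusted p = 0.0810).

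Among regulators, 3 of 9 tested hypoxia targets outside glycolysis rose and 0 fell. The other 6 did not pass and lay on both sides of 0. Among them were Vegfa, with a log2 change of -0.82 (adjusted p = 0.0543), and Ndrg1, with 0.39 (adjusted p = 0.343). The ratio of Ndrg1 was 0.837 in PF4-Cre and 2.05 in ROSA-Cre. P4ha1, a collagen prolyl hydroxylase subunit, rose by 0.85 (SE 0.13, adjusted p = 0.00646), Ddit4, an inhibitor of mTORC1, by 1.01 (adjusted p = 0.0301) and Bnip3, a mitophagy receptor, by 0.88 (adjusted p = 0.0308). Of 8 genes of the hypoxia factor pathway 1 rose, Egln1, an oxygen sensor that marks the factor for breakdown (log2 change 1.0, SE 0.26, adjusted p = 0.0364). Hif1a did not pass (log2 change 0.23, SE 0.12, adjusted p = 0.205). In the MYC list 1 of 7 rose and 1 fell. Txnip, an inhibitor of glucose uptake, had 30916, 73297, 7583 and 34748 counts and rose by 1.78 (SE 0.26, adjusted p = 0.00556). Myc, an activator of glycolysis genes, had 2394, 1580, 1261 and 724 counts and fell by 0.64 (SE 0.14, adjusted p = 0.0222). Hk2, Ldha and Slc2a1 are among the textbook targets of the hypoxia factor. Their log2 changes were -0.56, -0.43 (not past the test) and 1.004.

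In the citric acid cycle, the pentose phosphate pathway and pyruvate entry into mitochondria the calls were falls. Glycogen genes, given further below, had calls in both directions. In the citric acid cycle 8 of 16 genes fell and 0 rose, among them Idh3a (log2 change -0.60, adjusted p = 0.0205), Mdh2 (-0.56, adjusted p = 0.0300) and Sdhb (-0.52, adjusted p = 0.0306), with a list median of -0.41. In the pentose phosphate pathway, which branches off after the hexokinase step, 3 of 8 fell and 0 rose, and Tkt, its transketolase, fell by 0.89 (SE 0.16, adjusted p = 0.0118). Of 13 genes for pyruvate entry into mitochondria 12 were tested, and 2 fell and 0 rose by the edgeR test. Pdk3, a kinase that shuts pyruvate dehydrogenase, fell by 0.64 (adjusted p = 0.0141), and Dlat, a subunit of that complex, by 0.51 (adjusted p = 0.0338). Pdk4, which was not tested, had 13 and 99 counts in the PF4-Cre pair, wild-type first, and 0 and 5 in the ROSA-Cre pair. The numbers of calls in these lists stand beside 9.58% of tested genes called lower, and the medians beside -0.02 over all tested genes.

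**Figure D4:**
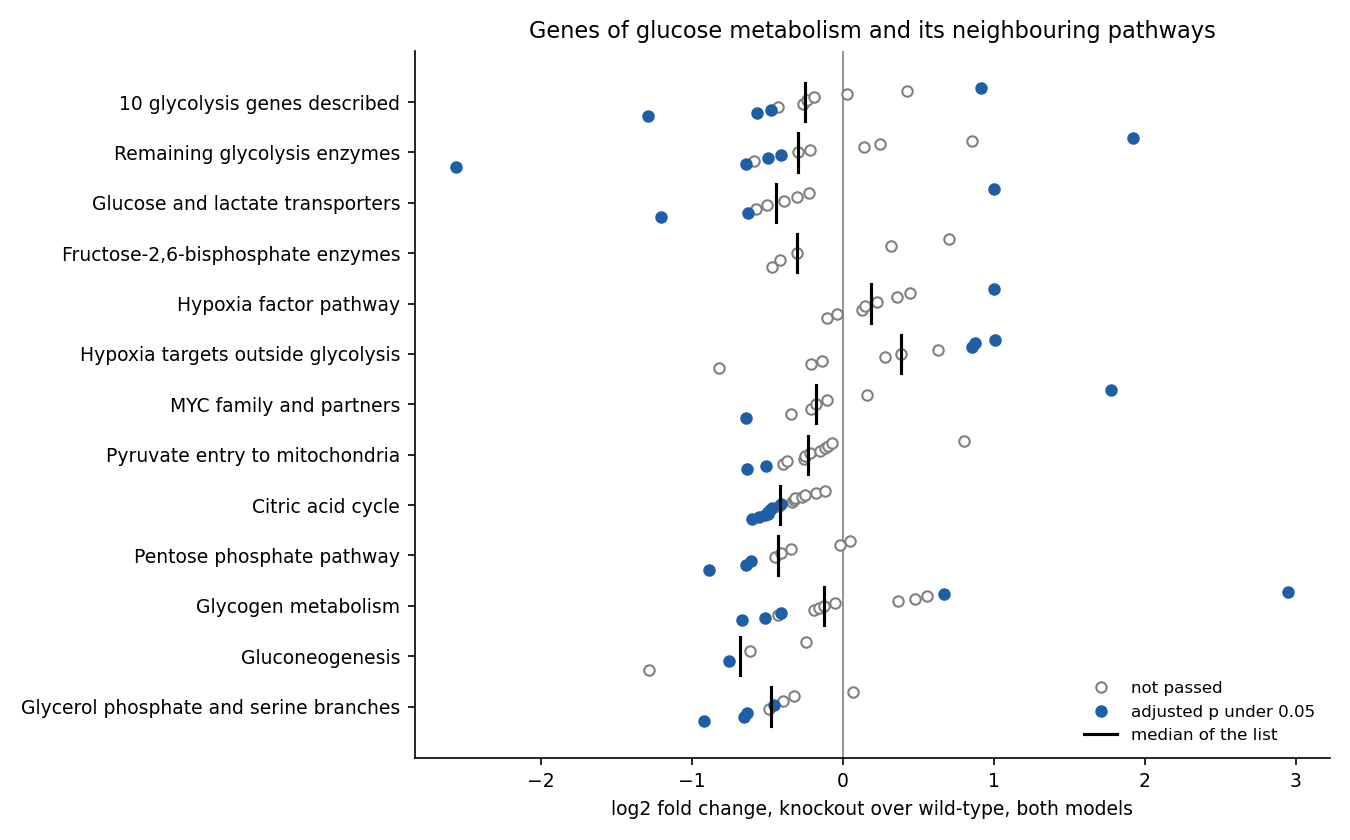
Log2 change of knockout over wild-type in both models (x axis) for each tested gene of the 10 glycolysis genes and 12 further lists (rows), with filled points for genes with an adjusted p under 0.05, open points for the rest and a bar at each list's median. The citric acid cycle row has its 8 filled points all below 0. The hypoxia targets row has its 3 filled points all above 0 and open points on both sides of it.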

How the data were processed

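Counts were read for 4 libraries, grouped by genotype and Cre status in the labels. The authors deposited raw read counts per Ensembl gene, 1 table per library, not normalised. Libraries were stranded, made from mRNA and sequenced paired-end, per the labels' protocols. Tools named in the submitters' processing notes are TopHat2 2.0.10, SAMtools, HTSeq and DESeq, with builds mm10 and GRCm38; annotation release and strand setting: not given in the sources used here. The 5 category lines entered neither library sizes nor tests; the share without a gene was 32.1%, 36.1%, 34.9% and 36.2% of unique alignments, listed as PF4-Cre and then ROSA-Cre, each with its wild type first. Symbols were found for 40254 of 41214 identifiers.

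Counts were fitted with edgeR 4.0.16 (R 4.3.3): TMM, filterByExpr by genotype (minimum count 10), genotype and Cre model as terms, quasi-likelihood tests, Benjamini-Hochberg adjustment at 0.05 over 15063 genes. This left 1 residual degree of freedom, 6.25 prior degrees and a common biological coefficient of variation of 16.1%. A standard error is the log2 change divided by the root of its F statistic. The p-values measure only the spread between these libraries. Ratios within a model had 1 added before taking log2, with 95% Clopper-Pearson intervals. Intervals, and the floor of 3 counts (0.0487 to 0.137 CPM), cover counting error only. Positions and exonic lengths (the union of annotated exons) come from GENCODE M21. Alternatives were DESeq2 size factors and the DESeq2 1.42.0 Wald test, other filters, dispersion methods and models, libraries left out, and a GC and length correction with splines (4 degrees of freedom per trend). The fit was checked on simulated counts.

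The members and the lists were chosen with earlier results of these data known, so list counts are descriptions. Named were all 10 members, Gfi1b and the other tested isoforms of their steps. Up to 3 genes of each pathway list, by smallest p, and the most abundant marker of each cell type were named too. Eno1, Hif1a, Vegfa, Ndrg1, Pitrm1, Unc5a, Pdk4, the pseudogene and further genes that complete a count were named after their values were seen. Results of some single genes are not reported here.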

Additional observations from a re-analysis of the deposited data

How the results depend on the processing

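Fitted to all 4 libraries, Hk3 and Pgam1 kept direction and call under 7 of 8 alternatives and Hk1 and Hk2 under 6. Without a filter on low counts Hk1 and Hk2 missed the threshold (adjusted p = 0.0666 and 0.0527), which left 1936 genotype calls, 1 member lower, 1722 Cre model calls and 0 members higher in ROSA-Cre. Without the other term all 4 member calls ended (Hk1 0.458, Hk2 0.295, Hk3 0.0838, Pgam1 0.201), with 163 genotype calls, 0 members higher, 0 lower, and 1 Cre model call with 0 members; that model puts the difference between the other groups into the spread. DESeq2's Wald test, the stricter filter (mean 5 CPM) and the GC and length correction each called 2 members higher, the second being Pkm. The GC and length correction left 479 Cre model calls and 0 members, and turned the sign of Pfkp (-0.161). With 1 library left out, and the other term with it, genotype calls ranged from 509 to 880, members higher from 0 to 0 and lower from 0 to 1; Cre model calls ranged from 0 to 4 and members higher from 0 to 0. There the genotype change of Gpi1 ranged from -0.364 to 0.023 (turned without wild-type ROSA-Cre) and that of Pfkp from -0.126 to 0.181 (turned without the PF4-Cre knockout), and the Cre effect of Pgam1 from -0.093 to 0.966 (turned without the ROSA-Cre knockout). None of these changes had its cause tested beyond the fits named. Within PF4-Cre, 0 members were 2-fold lower with library totals, 1 was higher at a 1.5-fold limit and 0 were lower at 4-fold; within ROSA-Cre 3 were lower at 1.5-fold, and 0 lower and 0 higher at 4-fold. No paired analysis was possible because each group holds a single library and the shared number 1 is only a name. With 1 library per group, the spread between animals of a group is not measured.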

Other observations

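Lists for glycogen use and for the branches that leave glycolysis held some calls, to be read beside 12.6% of tested genes called higher in the knockout and 9.58% called lower. Of 13 glycogen genes 2 rose, 3 fell and 8 did not pass. Pygm, the muscle glycogen phosphorylase, had 79, 604, 25 and 185 counts (PF4-Cre and then ROSA-Cre, each with its wild type first) and rose by 2.95 log2 units (SE 0.30; adjusted p = 0.00153 by the edgeR test). Phka1, a regulatory subunit of phosphorylase kinase, rose by 0.67 (adjusted p = 0.0161), and Pygl, the liver phosphorylase, fell by 0.51 (adjusted p = 0.0284). In the glycerol phosphate and serine branches 4 of 8 fell, 0 rose and 4 did not pass, the falls including Psat1 (log2 change -0.66, adjusted p = 0.0116), Shmt2 (-0.92, adjusted p = 0.0116) and Shmt1 (-0.63, adjusted p = 0.0138), enzymes of serine synthesis and its use in one-carbon metabolism. Of 4 tested gluconeogenesis genes 1 fell, the phosphatase gene G6pc3, by 0.75 (adjusted p = 0.00898), and 3 did not pass, among them Fbp1 (log2 change -1.28, adjusted p = 0.0534).

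Marker lists of cells that the sort could hold gave the values below, beside 12.6% of tested genes called higher in the knockout and 9.58% called lower. In the megakaryocyte list 4 of 12 rose and 3 fell, and of the 3 genes of the sort gate Itgb3 rose. In the erythroid list 5 of 12 rose (4 globin genes and Alas2) and 3 fell, among them Klf1 and Rhag. Summed erythroid levels were 55.8 and 222 CPM in PF4-Cre, wild-type first, and 125.5 and 349 in ROSA-Cre. Hbb-bs, which has a near-identical copy, was the most abundant. The median log2 ratio of the 12 was 1.06 in PF4-Cre and -1.205 in ROSA-Cre, so sum and median went opposite ways in ROSA-Cre. Of 8 tested mast cell, basophil and eosinophil markers 1 rose (Fcer1a) and 2 fell (Gata1 and Prg2, the latter the most abundant). Of 5 lymphoid markers 0 rose and 0 fell (most abundant Nkg7). Of 7 stem cell and endothelial markers 2 rose, Procr and Mecom, while Pecam1, the most abundant, did not pass. Of 5 dendritic markers 1 rose, Clec9a, which was also the most abundant. The part of such cells in the glycolysis results was not tested.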
